A study of Drosophila melanogaster with 3 samples.

Results

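Distal intron peaks are ChIP-seq peaks of HLHm7 that lie inside protein-coding genes but far from the annotated start of any protein-coding transcript. They were taken from the authors' optimal set, the 2397 peaks on the dm6 build that passed their test of reproducibility between replicates (irreproducible discovery rate, IDR). A peak was kept when its summit, the position of its highest signal, lay more than 5000 bp from the nearest transcription start site (TSS) of a protein-coding transcript, inside the span of a protein-coding gene and in no exon of one. Of the 2397 peaks, 298 met this rule (12.4%, 95% Wilson interval 11.2 to 13.8%). The chromatin came from whole Drosophila melanogaster embryos of both sexes, 0 to 16 h old, of a transgenic line with a stable fusion of GFP to the C-terminus of HLHm7, and it was precipitated with an antibody to GFP (ChIP-seq). The labels give 3 biological replicates of this 1 group. Neither a treatment nor an untagged embryo group is part of the comparisons, so the distal intron peaks were set against other peaks, against weaker regions and against the sequence in which such a peak could lie. Whole embryos mix all tissues and many stages, and a site bound in few cells cannot be told apart from a weakly bound one.

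HLHm7 is the product of E(spl)m7-HLH, one of the basic helix-loop-helix repressors of the Enhancer of split complex. These proteins are induced by Notch signalling, recruit the corepressor Groucho, and are known to bind the class C site and related E-boxes in the enhancers of proneural genes. Introns of long developmental genes often hold enhancers, which act on a promoter at a distance, so a peak in such an intron names a host gene but not the gene on which the site may act.

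The sequences at some of the summits are given here as a description of the DNA under a peak. Among the distal intron peaks with the highest signal were those in osa, CG32486 and S. Each is shown from 100 bp before to 100 bp after the summit, plus strand, 5′ to 3′, from the RefSeq dm6 sequence. Capitals mark matches, on either strand, to the class C site CACGNG, the N-box CACNAG, any E-box CANNTG, the Su(H) site GTGGGAA or GTGAGAA, or the GATA site AGATAA.
osa (chr3R:17704320-17704520): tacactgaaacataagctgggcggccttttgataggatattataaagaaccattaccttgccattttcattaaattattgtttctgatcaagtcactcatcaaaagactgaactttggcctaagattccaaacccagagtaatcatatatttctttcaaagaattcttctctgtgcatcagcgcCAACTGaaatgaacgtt
CG32486 (chr3L:3060697-3060897): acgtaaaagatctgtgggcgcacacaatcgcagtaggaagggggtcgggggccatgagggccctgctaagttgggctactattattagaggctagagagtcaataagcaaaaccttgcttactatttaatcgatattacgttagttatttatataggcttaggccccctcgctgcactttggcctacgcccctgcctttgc
S (chr2L:1072301-1072501): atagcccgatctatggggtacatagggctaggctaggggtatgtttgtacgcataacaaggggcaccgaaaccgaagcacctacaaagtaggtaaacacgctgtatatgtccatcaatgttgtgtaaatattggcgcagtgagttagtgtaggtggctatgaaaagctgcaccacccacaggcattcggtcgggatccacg
None of these 3 windows held a class C site, an N-box, a Su(H) site or a GATA site, and those of CG32486 and S held no E-box. The next 5 windows are shown for the motif that each holds. InR has a CACGTG, an E-box that is also a class C site, Snoo has a class C site that is also an N-box, rdx has a Su(H) site, Gug has the E-box CATATG, and Hr4 has an N-box and a GATA site.
InR (chr3R:21613454-21613654): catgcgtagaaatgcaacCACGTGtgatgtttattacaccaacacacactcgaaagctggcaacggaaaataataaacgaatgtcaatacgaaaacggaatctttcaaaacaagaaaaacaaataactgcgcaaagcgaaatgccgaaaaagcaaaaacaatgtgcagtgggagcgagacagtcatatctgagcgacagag
Snoo (chr2L:7925441-7925641): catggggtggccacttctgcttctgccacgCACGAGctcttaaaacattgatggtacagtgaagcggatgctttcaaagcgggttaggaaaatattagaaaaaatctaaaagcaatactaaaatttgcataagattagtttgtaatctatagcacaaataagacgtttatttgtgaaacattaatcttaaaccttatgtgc
rdx (chr3R:13999663-13999863): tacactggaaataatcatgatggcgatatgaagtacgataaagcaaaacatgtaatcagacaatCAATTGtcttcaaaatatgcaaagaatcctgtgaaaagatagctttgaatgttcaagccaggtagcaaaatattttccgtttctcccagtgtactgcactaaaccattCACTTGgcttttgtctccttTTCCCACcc
Gug (chr3L:8458229-8458429): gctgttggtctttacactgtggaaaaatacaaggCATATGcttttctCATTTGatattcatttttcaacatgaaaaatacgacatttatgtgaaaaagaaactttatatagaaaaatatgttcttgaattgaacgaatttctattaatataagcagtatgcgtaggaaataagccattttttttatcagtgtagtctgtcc
Hr4 (chrX:1963843-1964043): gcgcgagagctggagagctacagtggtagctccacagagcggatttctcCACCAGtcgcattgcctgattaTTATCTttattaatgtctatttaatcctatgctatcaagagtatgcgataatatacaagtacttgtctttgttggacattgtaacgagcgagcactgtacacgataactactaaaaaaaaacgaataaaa
Su(H) is the DNA-binding factor of the Notch pathway, and GATA factors act in blood, gut and epidermis. How often each motif occurred in all 298 windows is given with the motif comparisons.

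The distal intron peaks with the highest signals were in genes of several kinds. Signal is the authors' own value for a region in the pooled list, with no stated scale, so it serves only to rank regions within a list, and ranks count from 1 for the highest signal. No read numbers come with the lists, so depth is unknown and all intervals cover counting error only. The highest, in osa, which encodes a subunit of the Brahma chromatin remodelling complex, had a signal of 820 and rank 26 of 2397 (FBgn0261885; chr3R:17704266-17704552). It ranked 27, 25 and 25 in replicates 1, 2 and 3, and lay in an intron 13930 bp from the nearest start site. The peak in CG32486 had a signal of 540 and rank 70 (chr3L:3060707-3060916). Its replicate ranks were 95, 60 and 83, and its nearest start site was that of CG16753, at 5718 bp. The peak in S, which encodes Star, a protein needed to traffic and process the EGFR ligand Spitz, had a signal of 508 and rank 78 (chr2L:1072288-1072503). Its replicate ranks were 78, 79 and 105. All 3 were within the first 105 regions of every replicate.

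Of the 25 highest-signal peaks, all 25 were among the top 2397 regions of every replicate, and 16 were in a first intron. JIL-1, which encodes a histone H3 kinase, had a signal of 431 (rank 115), and Gug, which encodes the corepressor Atrophin, had 418 (rank 120). The peak in smash had a signal of 386, and that in vn, which encodes the EGFR ligand Vein, had 338. The vn peak ranked 187 and 141 in replicates 1 and 2 and 506 in replicate 3. MESR3 (336), beat-Ib (335), a member of the Beat family of neuronal adhesion proteins, and fz (295), which encodes the Wnt and planar polarity receptor Frizzled, followed. A signal of 284 was found at wdb, a regulatory subunit of protein phosphatase 2A, at gpp, the histone methyltransferase Dot1 of the fly, and at the highest peak of Eip75B. The last of the 25 were in babos (283), CG6959 (280), CG42342 (279), CG6966 (273) and Psc (272), a Polycomb group gene, and others were in Hr4, Raf and rdx, described below. Over all 298 peaks the median signal was 134 (quartiles 107 and 177, lowest 90.6), so the peaks named here are the upper tail. The peaks were 384 bp wide in 282 of 298 cases. Of the 16 narrower ones, 15 were among the 74 peaks with the highest signals.

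Distal introns held a smaller share of the optimal peaks than of the weaker pooled regions. The pooled list is labelled as peaks and background, the input for IDR. Its weaker regions, here and in later comparisons, can thus be background and are not a set of weak HLHm7 sites. Of the optimal peaks, 298 of 2397 (12.4%) were distal intronic, against 4220 of the 27525 pooled regions that matched no optimal peak (15.3%; difference -2.90 percentage points, 95% Newcombe interval -4.23 to -1.46; two-sided Fisher's exact test, p = 1.09e-04). The share was lowest at the top of the ranking: 4 of the first 100 regions (4%, interval 1.57 to 9.84%) and 30 of the next 400 (7.5%, 5.30 to 10.5%). It was 13.8% at ranks 501 to 1000 and 14.0% at ranks 1001 to 2397. Below the optimal set it was 13.4% at ranks 2398 to 5000, 13.2% at 5001 to 10000, 15.4% at 10001 to 20000 and 16.8% at 20001 to 30000. Promoter peaks, with a summit within 500 bp of a TSS, took 50% of the first 100 regions and 15.4% of the last 10000. Intron summits 501 to 5000 bp from a TSS took 27% and 15.5% of the same ranges. Intergenic summits over 500 bp from a TSS took 18% of the first 100, 13% of the next 400 and 22.8% of the last 10000. A larger share among the weakest regions was thus not particular to distal introns. With the distance of the rule set to 2000 bp, the optimal and weaker regions had shares of 22.9% and 23.6% and the difference no longer passed (Fisher's exact p = 0.467).

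**Figure D1:**
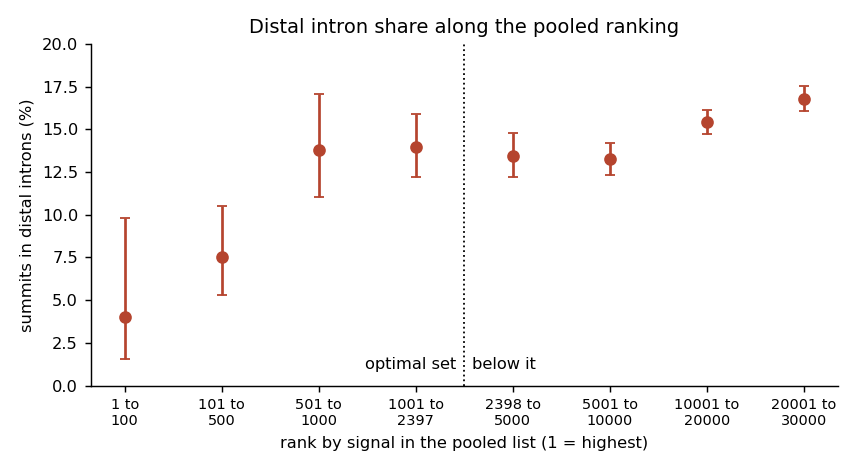
Share of pooled regions with a distal intron summit (percent, points) by rank of the region's signal in the pooled list, with 95% Wilson intervals that cover counting error only; the dotted line is the end of the optimal set. The first 2 ranges, at 4% and 7.5%, lie below all the others, which run from 13.2 to 16.8%.

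Distal introns were also sparse in peaks per unit of sequence. The territory of the rule, every base that a summit could occupy and meet it, came to 30.2 Mb, or 22.6% of the arms. It held 9.87 optimal peaks per Mb, against 20.2 per Mb in the rest of the arms (12.4% of peaks on 22.6% of sequence, two-sided exact binomial test, p = 1.11e-36). Promoters, which hold 1072 of the 2397 peaks, are part of that rest. Repeats and sequence that cannot be mapped uniquely were not removed from the territory, and their part in the density was not tested. A binomial test treats peaks as independent, and 71 of the 298 had another distal intron peak within 5 kb. Of the 298, 6 had one within 500 bp, and 4 overlapped another optimal peak.

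Density was lower farther from the nearest start site, a trend given as a description with no test. It was 14.5 peaks per Mb between 5 and 10 kb (156 peaks), 11.3 per Mb between 10 and 20 kb (100 peaks) and 3.95 per Mb beyond 20 kb (42 peaks). The median distance was 9599 bp and the largest 61676 bp, for a peak in Sema1a, which encodes a transmembrane semaphorin of axon guidance. Beyond 20 kb lay 14.1% of the optimal distal intron peaks, against 20.7% of the weaker pooled regions of the same class, a difference that was not tested. The rule cuts this distribution at 5000 bp. Among the 5 peaks nearest to the limit on the inside were those in sano (5005 bp, signal 91.9), tara (5013 bp, 238), nuf (5071 bp, 126) and BicD (5079 bp, 145). On the outside were intron peaks in Pdk (4993 bp, 204), Ac13E (4991 bp, 162), cno (4970 bp, 93.5), ush (4959 bp, 498) and Pak3 (4945 bp, 116), so peaks on both sides of it covered overlapping ranges of signal.

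First introns were over-represented among the peaks. A summit in the first intron of at least 1 transcript of a host gene was found for 160 of 298 peaks (53.7%), against 30.9% of the territory (1.74-fold, two-sided exact binomial test, p = 4.04e-16). First introns are also the ones closest to start sites, so the comparison was repeated within ranges of distance, an alternative chosen after seeing the data. First introns held 97 of the 156 peaks at 5 to 10 kb (62.2%, against 44.2% of the territory at that distance, exact binomial test with Benjamini-Hochberg adjustment, p = 2.29e-05). They held 47 of 100 at 10 to 20 kb (47%, against 33.8%, exact binomial test, adjusted p = 0.00788) and 16 of 42 beyond 20 kb (38.1%, against 14.9%, adjusted p = 3.00e-04). Against the weaker pooled regions of the same class, also chosen after seeing the data, the share was 53.7% for the peaks and 42.0% for the regions (1.28-fold, two-sided Fisher's exact test, p = 1.01e-04). With the lowest intron number over the host's transcripts, 86 peaks were in intron 2, 25 in intron 3, 14 in intron 4 and 14 in a later one. The introns that held the peaks had a median length of 17.9 kb (quartiles 10.4 and 32.3 kb).

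**Figure D2:**
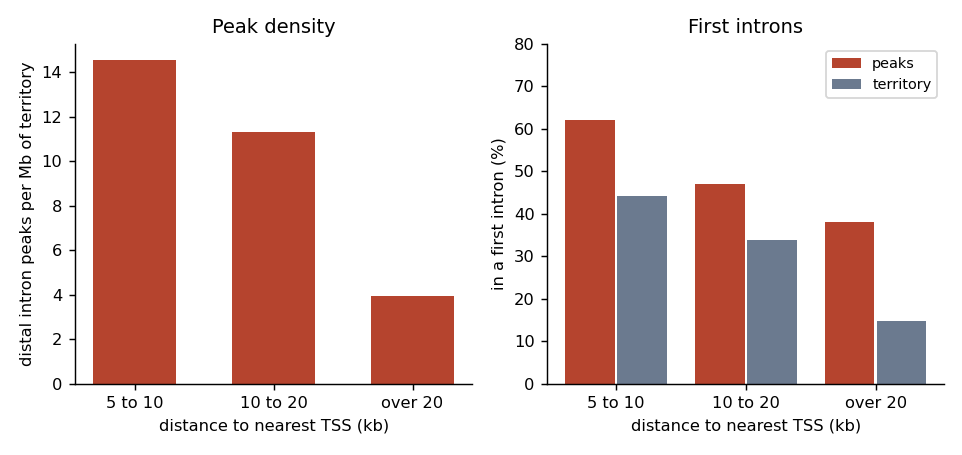
Left, distal intron peaks per Mb of territory by distance from the nearest protein-coding start site (kb). Right, percent of the peaks (red) and of the territory (grey) in a first intron at each distance; density is 14.5, 11.3 and 3.95 per Mb, and the red bar is above the grey one in all 3 ranges.

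How often the peaks were among the strongest regions varied with the replicate. The top list of a replicate is its 2397 regions of highest signal, and a peak was counted in it when a summit lay within 200 bp. All 3 top lists held 164 of the 298 peaks (55.0%, interval 49.4 to 60.6%), where 59.9% of all optimal peaks were in every top list. The other 134 were in 2 lists (79 peaks), in 1 list (52 peaks) or in 0 lists (3 peaks, in ths, Eip75B and Tsp). In the full lists of 30000 regions, which include background, 294 of 298 (98.7%) had a region in every replicate. For promoter peaks this share was 96.4%, for intron peaks 501 to 5000 bp from a TSS 97.7% and for intergenic peaks 98.9%. The share in every top list was 55.0% for distal intron peaks and 61.9% for promoter peaks (difference -6.91 points, 95% Newcombe interval -13.3 to -0.626, Fisher's exact test, adjusted p = 0.0969). Against intron peaks 501 to 5000 bp from a TSS (59.2%) the difference was -4.15 points (-11.0 to 2.65, Fisher's exact test, adjusted p = 0.253), and against intergenic peaks (60.5%) it was -5.51 points (-13 to 2.02, adjusted p = 0.233). None of the 3 passed. The difference from promoter peaks passed without the top list of replicate 2 (60.7% against 70.0%, Fisher's exact test, adjusted p = 0.00949), with start sites of all annotated genes (adjusted p = 0.0346) and with top lists of 1/2 the length (adjusted p = 0.0198). With summits required within 50 bp the shares were 40.9% for distal intron and 41.0% for promoter peaks (difference -0.0119 points, Fisher's exact test, adjusted p = 1). With top lists 2 times as long they were 83.2% and 84.0% (difference -0.734 points, Fisher's exact test, adjusted p = 0.790). Among optimal peaks above the median signal they were 96.4% and 95.3% (difference 1.00 points), which did not pass.

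By replicate, the top list of replicate 1 held 73.2% of the distal intron peaks and 84.2% of the promoter peaks. Replicate 2 held 84.6% of the distal intron peaks and 83.2% of the promoter peaks, and replicate 3 held 77.9% and 80.6% of the same classes. The gap between the classes was largest in replicate 1, and the per-replicate shares were not tested. Of the 52 peaks in a single top list, 10 were in that of replicate 1, 26 in that of replicate 2 and 16 in that of replicate 3. The ranks also differed between the replicates. In the pooled values 137 of the 298 peaks (46.0%) were above the median of the optimal set, against 52.1% of promoter peaks (difference -6.17 points, interval -12.5 to 0.242, Fisher's exact test, adjusted p = 0.200). By rank in replicate 1 the shares were 40.0% for distal intron and 54.0% for promoter peaks (Fisher's exact test, adjusted p = 7.12e-05), by rank in replicate 3 they were 42.1% and 53.0% (adjusted p = 0.00302), and by rank in replicate 2 they were 45.6% and 52.1% (adjusted p = 0.148). Against intron peaks 501 to 5000 bp from a TSS (50.2%) and intergenic peaks (47.1%) the pooled differences were -4.27 (interval -11.1 to 2.64) and -1.15 points (-8.72 to 6.46), with adjusted Fisher's exact p of 0.346 and 0.814. The difference from the nearer intron peaks passed by rank in replicate 1 (-8.76 points, Fisher's exact test, adjusted p = 0.0154) and by rank in replicate 3 (-9.30 points, adjusted p = 0.0133). It also passed without replicate 2, that is, among the optimal peaks in the remaining top lists (-10.4 points, Fisher's exact test, adjusted p = 0.0368). The difference from intergenic peaks passed by rank in replicate 1 (-9.73 points, Fisher's exact test, adjusted p = 0.0154). As a description of how the ranks of the distal intron peaks ran together, Spearman's rho was 0.723 for replicates 1 and 2, 0.594 for replicates 1 and 3 and 0.588 for replicates 2 and 3, over 295, 294 and 297 peaks with a region in both lists. The top lists are themselves made by signal rank, so peaks of higher signal are in more of them by construction. Of the 74 peaks with the highest signals 73 were in every top list, of the next 75 there were 67, of the following 75 there were 23, and of the lowest 74 there was 1.

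**Figure D3:**
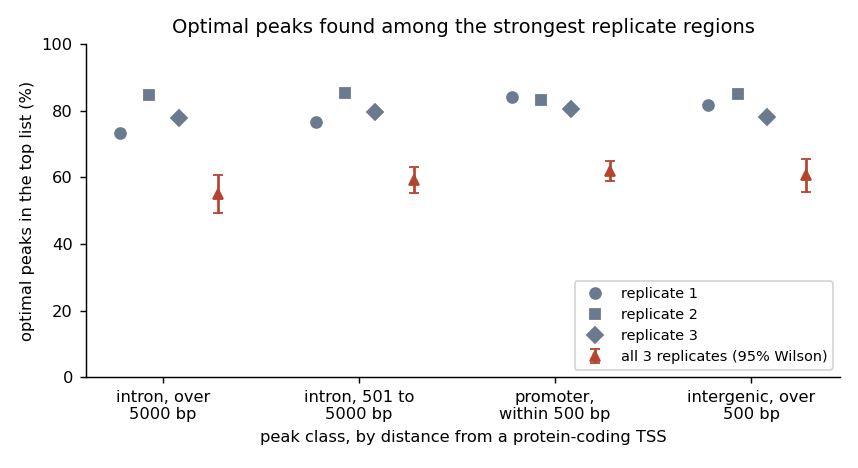
Percent of optimal peaks of each class found in the top list of replicate 1, 2 or 3 (grey) and in all 3 (red, with 95% Wilson intervals). Replicate 1 is the lowest point among the distal intron peaks (73.2%) and the highest among the promoter peaks (84.2%).

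The 298 peaks lay in 219 host genes, and some long genes held several. Of the 1852 protein-coding genes with any territory, 219 hosted a peak (11.8%), 62 of them 2 or more and 19 of them 3 or more. Hosts were long, with a median span of 45.6 kb, against 19.5 kb for the other genes with territory. The share of hosts was 2.24% among genes with up to 5 kb of territory, 14.0% at 5 to 20 kb, 25.3% at 20 to 50 kb and 33.3% above 50 kb, so a count of hosts in a gene list has to be read beside the length of its introns. The nearest start site belonged to a host gene for 211 peaks (70.8%) and to a neighbouring or nested gene for the others. Relative to the nearest start site of the host, 261 peaks lay downstream and 37 upstream. A promoter peak was also present in 43 of the 219 hosts (19.6%), against 206 of the 1633 other genes with territory (12.6%), a difference that was not tested.

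rdx held the most distal intron peaks. It encodes Roadkill, an adaptor that brings the Hedgehog effector Ci to a ubiquitin ligase. Its 7 peaks spread over 18.4 kb of a 52.5 kb intron, with signals of 313, 287, 197, 148, 139, 115 and 91.6. The strongest (FBgn0264493; chr3R:13999571-13999954) ranked 264, 231 and 376 in replicates 1, 2 and 3, and the next (chr3R:14012642-14012804) ranked 345, 302 and 310. The weakest of the 7 ranked 12293 in replicate 1, against 1885 and 2167 in replicates 2 and 3. The peaks with signals of 287 and 148 had summits 270 bp apart, so the 7 peaks may hold fewer separate sites.

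Hr4, a nuclear receptor gene of the ecdysone cascade, held 6 peaks over 36.5 kb (FBgn0264562). The highest, with a signal of 372 (chrX:1963827-1964034), ranked 233, 144 and 159 in replicates 1, 2 and 3, and the next, with 355 (chrX:1951812-1951977), ranked 202, 170 and 209. The other signals were 325, 190, 156 and 103, and 5 of the 6 peaks were in every top list. The 4 peaks of Raf, which encodes the kinase that links Ras to MEK, were the most compact group among the hosts with 4 or more, with 5.8 kb between the first and the last. Their signals were 320, 207, 182 and 144, and all 4 were in every top list. Raf also held 5 optimal peaks that were not distal.

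Eip75B, another nuclear receptor gene of the ecdysone cascade, held 4 peaks with signals of 284, 162, 114 and 92.3. The highest (FBgn0000568; chr3L:18019764-18019896) ranked 216, 550 and 245 in replicates 1, 2 and 3, and the lowest was in 0 top lists. tara, a gene of cell cycle and transcription control, held 4 (238, 158, 156 and 93.9), sbb, which encodes a transcriptional corepressor, held 4 (224, 220, 97.9 and 93.4), and kirre, a gene of myoblast fusion, held 4 (166, 130, 97.9 and 94.8). The kirre peaks were 38.2 kb apart at most in a gene of 394 kb. In tara 3 of the 4 were in every top list, and in sbb and kirre 2 of 4.

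Of the other 12 hosts with 3 peaks, Antp and CG46458 overlap and share the same 3 peaks. Antp is a Hox gene, and the highest signal of the 3 was 134. gpp (highest signal 284) and simj (159), a subunit gene of the NuRD complex, act in chromatin. cic (213) encodes the repressor Capicua, which receptor tyrosine kinase signalling inactivates, and Pvf3 (175) encodes a ligand of the PDGF and VEGF receptor of the fly. Tet (147) encodes the fly's Tet dioxygenase, ftz-f1 (112) a nuclear receptor of the ecdysone cascade, and Drak (100.9) a protein kinase. CG42342 (279), B4 (224) and SKIP (141) complete the group.

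**Figure D4:**
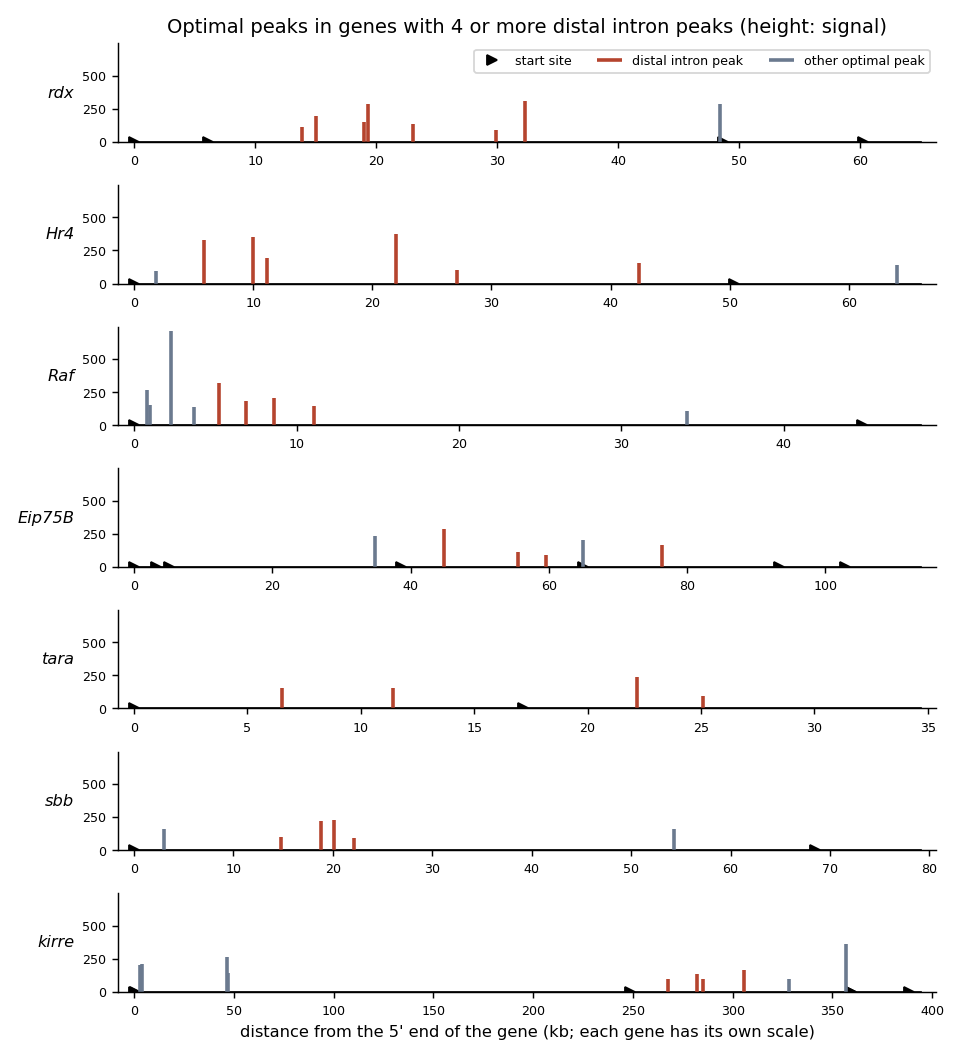
Optimal peaks in the 7 genes with 4 or more distal intron peaks, by distance from the 5′ end of the gene (kb, with a scale of its own for each gene) and by signal (height, the authors' scale); distal intron peaks are red, other optimal peaks grey and start sites black. rdx has 7 red peaks within 18.4 kb, and the 4 of Raf stand within 5.8 kb. The tallest grey peak of Raf, nearer its start, is higher than all 4.

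Genes of the ecdysone response held the most peaks per Mb among 14 gene lists. Ecdysone, the steroid hormone of insect moulting, acts through the receptor EcR and a cascade of nuclear receptors. Of 13 such genes with territory, 7 hosted a peak (53.8%, against 11.8% of all genes with territory), with 19 peaks in all and 50.4 per Mb, against 9.87 per Mb for the whole territory. They were Hr4, Eip75B, Hr3 (226), EcR (224 and 104), E23 (197 and 132), an ABC transporter gene, ftz-f1 and Eip74EF (108). The EcR peaks ranked 389, 428 and 1191 and then 4389, 1410 and 4264 in replicates 1, 2 and 3, so the stronger was within every top list and the weaker in 1. Hr4 and Eip75B together gave 10 of the 19 peaks. Median territory in this list was 30.8 kb a gene, and of all genes with 20 to 50 kb of territory 25.3% were hosts. The gene lists were chosen with earlier results of these data known, so their order is a description only.

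Signalling genes were described by pathway, with no test of a list against the whole territory. Of all genes with territory, 11.8% were hosts. The density was above that of the whole territory for the receptor tyrosine kinase list and for the Wnt, Hedgehog and Dpp list. Of 15 genes of EGFR and other receptor tyrosine kinase pathways, 6 were hosts (40%, 7 peaks, 33.6 per Mb): S, vn, the insulin receptor gene InR (260), the Ets factor gene pnt (174 and 115), and the ligand genes jeb (172) and ths (93.6). The InR peak ranked 397, 293 and 516 in the replicates, and the ths peak was in 0 top lists. Of 16 Wnt, Hedgehog and Dpp genes, 6 were hosts (37.5%, 8 peaks, 23.1 per Mb). Beside fz these were the BMP ligand gene dpp (268), the glypican gene dlp (218), the BMP antagonist gene sog (144 and 90.9), the receptor gene tkv and the Wnt inhibitor gene nkd. In the Notch pathway 2 of 9 genes with territory were hosts (22.2%), the receptor gene N and the coactivator gene mam, and the 11.5 per Mb of this list was near the 9.87 per Mb of the whole territory. The N peak had a signal of 255 (rank 388; chrX:3162388-3162771) and replicate ranks of 433, 369 and 364. The mam peak had a signal of 120 and no region in the list of replicate 1.

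Among 37 transcription factors of long genes, 11 were hosts (29.7%, 22 peaks, 21.9 per Mb), led by tara, sbb, cic and the homeodomain gene ct. Of all genes with territory, 11.8% were hosts, a share to set beside each list named here. The transcription factor list is one of long genes by definition (median territory 19.3 kb). Among all genes, 14.0% of those with 5 to 20 kb of territory and 25.3% of those with 20 to 50 kb were hosts. Of 14 segmentation and Hox genes, 4 were hosts (28.6%, 19.1 per Mb): cad (161), hth (147 and 133), Antp and inv (95.1). In the chromatin list 2 of 11 were hosts (18.2%), osa and Psc, with 3 peaks on only 0.0645 Mb of territory (46.5 per Mb). The clock list had cwo, a basic helix-loop-helix-orange repressor gene (208; ranks 728, 555 and 525), as 1 host of 5. The blood list had ush, which encodes a GATA cofactor (194 and 120), as 1 of 9, and the neuroectoderm list had brat (127) as 1 of 8. Counts of 1 to 3 peaks on little territory give densities with wide counting error.

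Axon guidance and adhesion genes held peaks at a density near that of the whole territory. Of 40 genes, 12 were hosts (30%, against 11.8% of all genes with territory). Median territory in this list was 28.6 kb, and of all genes with 20 to 50 kb of territory 25.3% were hosts. The 12 hosts held 16 peaks at 10.1 per Mb, close to the 9.87 per Mb of the whole territory. The strongest were at Fas3 (240), caps (205), ed (190 and 176) and NetA (167), which encode adhesion proteins and a netrin. Mesoderm and muscle genes had 3 hosts of 17 (9.94 per Mb; kirre, how and Msp300), and cytoskeleton and polarity genes 3 of 20 (11.9 per Mb; scrib, pyd and cno). Ion channel and synapse genes had 1 host of 27 (3.70%), Ca-alpha1T, whose peak had a signal of 92.7. Their 0.846 Mb of territory thus held 1.18 peaks per Mb. The lists share genes, such as pnt and hth, and none of the counts was tested.

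**Figure D5:**
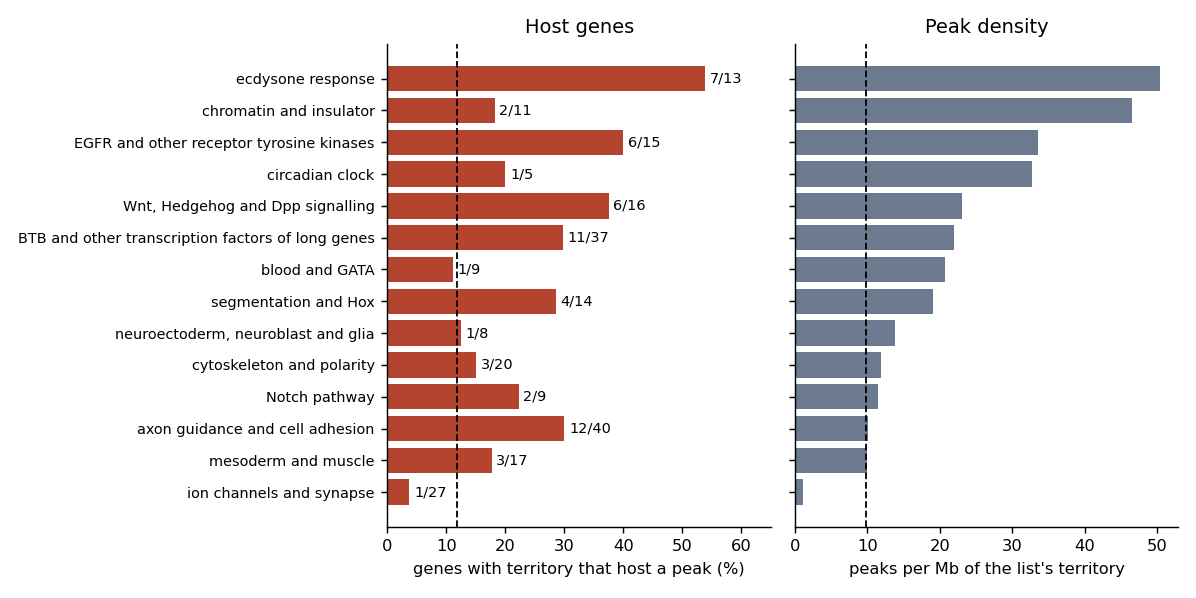
Left, percent of the genes with territory in each of 14 gene lists that host a distal intron peak, with hosts and genes with territory beside each bar; right, distal intron peaks per Mb of the list's territory. Dashed lines are the values for all genes with territory (11.8%) and for the whole territory (9.87 per Mb); ecdysone response genes have the highest values of both and ion channel and synapse genes the lowest.

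Starts of non-coding genes, which the rule did not use, lay near a few of the peaks. Within 500 bp of such a start were 9 of 298 summits (3.02%), against 1433 of 145438 windows of the length shown above, tiled over the territory without an optimal summit (0.985%; difference 2.03 points, 95% Newcombe interval 0.611 to 4.65; two-sided Fisher's exact test, p = 0.00318). They were 8 long non-coding RNA genes and 1 tRNA gene. The strongest was at 426 bp from lncRNA:CR44867 in beat-Ib (335; ranks 230, 184 and 258), and the nearest at 63 bp from lncRNA:CR46036 in osa, at that gene's weaker peak (147). The others were lncRNA:CR44478 in Socs36E (173), lncRNA:CR45808 in Hipk (171), lncRNA:CR44331 in puc (143), lncRNA:CR34335 in DIP-alpha (129), lncRNA:yar in CG32816 (114), lncRNA:CR45820 in Eip63E (104) and tRNA:Gln-TTG-2-1 in CG12535 (100.4). With the distance of the rule set to 10000 bp the shares were 2.11% and 0.784% and did not pass (Fisher's exact p = 0.102). An annotated transposable element overlapped the window around the summit, of the same length, for 1 of the 298 peaks. The share among tiles or other peaks is not given here, so this count has no comparison.

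No motif was found to mark the summits against their own flanks. Matches to 24 motifs were counted, on either strand, in the summit windows and in 585 windows of the same length centred 750 bp to either side. The windows were counted as independent, and the pairing of a summit with its own flanks was not used. None passed the two-sided Fisher's exact test after Benjamini-Hochberg adjustment over the 24 (smallest adjusted p = 0.314), and 3 had an unadjusted p under 0.05. These were the N-box, in 65 windows (21.8%) against 15.7% of flanks, the class C site, in 16 (5.37%) against 9.91%, and the homeodomain site TAATTA, in 29 (9.73%) against 14.5%. The class C site, known as a target of E(spl) repressors, was therefore not more frequent at the summits. It was rarer than in flanks 1500 bp away (11.9%, Fisher's exact test, adjusted p = 0.0390), a comparison that was not matched for GC content.

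Against the tiles of the territory, the class C site was the only motif that passed. It was in 5.37% of the summit windows and in 10.7% of the tiles (Fisher's exact test, adjusted p = 0.0442). The summit windows had a median GC content of 37.3% and the tiles 40.3%. Against tiles with GC content between the quartiles of the peaks, the class C shares were 5.37% and 8.18% and did not pass (Fisher's exact test, adjusted p = 0.353). The share in summit windows was 0.501-fold that in tiles. Without replicate 1, 2 or 3 it was 0.469-fold, 0.464-fold and 0.488-fold and did not pass (Fisher's exact test, adjusted p = 0.165, 0.159 and 0.187). Each of these sets was the optimal peaks in the top lists of the remaining replicates, without new peak calling. They hold fewer distal intron peaks (199, 181 and 191). CACGTG, the class B form, was in 1.68% of summit windows and 2.18% of tiles. The 16 class C windows included those of peaks in InR, Snoo, pnt (signal 174) and rdx, and of a Pvf3 peak ranked 2354. All of these but the Pvf3 peak were within rank 1108 by signal and in every top list. The rdx peak is not the one whose sequence is shown above, which held no class C site.

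The other E-boxes and the GATA site did not pass against the tiles at the rule distance, and some passed under other settings. CATATG was in 9.73% of summit windows and 5.74% of tiles (Fisher's exact test, adjusted p = 0.0683), and any E-box in 69.1% and 62.1% (adjusted p = 0.0962). CATATG passed at a rule distance of 2000 bp (1.59-fold, Fisher's exact test, adjusted p = 0.0133) and with start sites of all annotated genes (1.79-fold, adjusted p = 0.0403). Any E-box passed with start sites of all annotated genes (1.14-fold, Fisher's exact test, adjusted p = 0.0403) and against tiles of restricted GC content (1.15-fold, adjusted p = 0.0472). CACATG was in 11.1% and 9.27%, CACCTG in 5.37% and 5.84%, and CAGCTG in 7.05% and 7.01%. The N-box was in 21.8% of summit windows and 20.3% of tiles. These motifs overlap, since CACGTG is also a class C site and an E-box, and CACGAG is both a class C site and an N-box. The GATA site was in 15.8% of summit windows and 11.4% of tiles (Fisher's exact test, adjusted p = 0.132), and passed at a rule distance of 2000 bp (1.37-fold, adjusted p = 0.0209). The Su(H) site was in 4.36% and 4.48% (Fisher's exact test, adjusted p = 1; 95% Newcombe interval of the difference -1.92 to 2.84 points).

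None of the motifs of other factors passed against the tiles. The homeodomain site was in 9.73% of summit windows and 13.9% of tiles (Fisher's exact test, adjusted p = 0.173). The Sox site ACAATG was in 11.1% and 12.7%, the Runt site ACCACA in 6.71% and 8.65%, the Ets site CCGGAA in 2.68% and 4.90%, and the Tcf site CTTTGAT in 2.35% and 3.92%. The AP-1 site TGANTCA was in 4.70% of summit windows and 3.88% of tiles, the Mef2 site in 3.02% and 2.65%, the Brinker site GGCGCC in 2.68% and 2.15%, the grainyhead site AACNGGTT in 2.01% and 1.77%, and the Zelda site CAGGTAG in 0.671% and 0.851%. The repeats GAGAGAG and CACACACA were in 2.68% and 5.03% of summit windows, against 2.67% and 5.17% of tiles. A match is a description of the letters in the window and not a bound site.

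Windows at distal intron peaks differed from those at promoter peaks in 4 motifs. By the rule, the classes differ in distance from a start site. Promoters without a peak were not counted, so whether a difference belongs to promoter sequence or to the peaks was not tested. The DNA replication-related element, DRE, TATCGATA, known from housekeeping promoters, was in 0 of 298 distal intron windows, which allows a share of up to 1.01%, against 7.46% of promoter windows (Fisher's exact test with adjustment over 24 motifs and 3 classes, p = 2.48e-07). It was in 0.439% of tiles. Motif 1, GGTCACAC, another promoter element, was in 1 distal intron window (0.336%) against 3.64% of promoter windows (Fisher's exact test, adjusted p = 0.0238) and 0.298% of tiles. The class C site was in 5.37% of distal intron and 13.8% of promoter windows (Fisher's exact test, adjusted p = 0.00107), and CAGCTG in 7.05% and 14.3% (adjusted p = 0.0183). Among peaks above the median signal, 137 of them distal intronic, none of the 4 passed (DRE in 0% against 5.19%, Fisher's exact test, adjusted p = 0.175). CAGCTG and Motif 1 also did not pass in any of the 3 sets without 1 replicate, made as for the tiles (Fisher's exact test, adjusted p from 0.0616 to 0.768). No motif passed against intron peaks 501 to 5000 bp from a TSS or against intergenic peaks. Against these, the unadjusted p was under 0.05 for 1 and 0 motifs, and class C shares were 5.37% for distal intron peaks, 8.78% for nearer intron peaks and 7.95% for intergenic peaks.

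No chromosome arm passed the test against its share of the territory. The arms 3R, X, 2L, 3L and 2R held 82, 69, 55, 47 and 45 peaks. The X held 23.2% of the peaks on 17.2% of the territory (1.35-fold, exact binomial test, adjusted p = 0.0529), and the other large arms were between 0.790 and 1.21 times their share, with none past the test. Against the weaker pooled regions of the same class, a comparison chosen after seeing the data, the X held 23.2% of the peaks and 13.9% of the regions (1.66-fold, two-sided Fisher's exact test, adjusted p = 2.31e-04). Chromosome 4 held 0 peaks, which allows a share of up to 1.01%, on 0.953% of the territory (exact binomial test, adjusted p = 0.189).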

How the data were processed

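The data are ChIP-seq peak lists of 3 biological replicates, numbered by the labels, which form 1 group. The authors called regions in each replicate and in the pooled replicates against a control, and derived the optimal set by IDR, per the deposited file descriptions. The replicate and pooled lists are labelled as peaks and background, the input for IDR. Which aligner, peak caller and IDR cutoff were used is not given in the sources used here. The deposited signal of a region has no stated scale, and its q-value is deposited as −log10 (1.83 to 3.32 in the optimal set). The other deposited column used is the summit offset. Depth is unknown, so intervals and limits cover counting error only. Lists on dm3 were not used here.

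Summits were placed on Ensembl release 115 gene models, with sequence from RefSeq dm6, after a check that every region ended within its arm. The territory was counted base by base over 6 arms. Tests were two-sided Fisher's exact and exact binomial tests (Python 3.11.15, SciPy 1.17.1, NumPy 2.4.6, pandas 2.3.3, Matplotlib 3.10.9) with Benjamini-Hochberg adjustment and a threshold of 0.05, tested on simulated data. Peaks are not independent replicates, so p-values do not measure spread between embryos. Genes named are hosts of the 25 highest-signal peaks, hosts of 3 or more peaks, up to 4 hosts per gene list, the 5 peaks on each side of the distance limit and the non-coding genes near a peak. Further hosts of 3 lists, and hosts of peaks singled out by distance, by a class C site or by absence from the top lists, were named after their values were seen. One host gene under this rule is not reported here. Of the list symbols, 1 had no match. The peaks and lists were chosen with earlier results of these data known. Alternatives were other rule distances, start sites of all genes, the peaks above the median signal, other matching distances, list lengths, windows and backgrounds, and leaving out each replicate. Leaving out a replicate repeated no peak calling and kept the pooled signal. It took the optimal peaks in the top lists of the remaining replicates. For the share in every top list it took all optimal peaks and only the remaining lists.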

Additional observations from a re-analysis of the deposited data

How the results depend on the processing

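Over 145 results and 277 alternative values, no called direction reversed. The density of distal intron peaks and the excess in first introns kept their direction and passed under every alternative run. The distal intron share relative to weaker regions was 0.97-fold at a rule distance of 2000 bp and no longer passed, and the ratio for non-coding starts was 2.70 at 10000 bp and no longer passed. Among arms, at 2000 bp the X (1.33-fold) and chromosome 4 (0 peaks) passed, and the X was 1.66-fold against weaker regions. The difference from promoter peaks in every top list was -8.69 points with start sites of all genes and -8.47 with lists of 1/2 the length. It was -0.734 with lists 2 times as long, -0.0119 with summits within 50 bp, 1.00 among peaks above the median signal (distal intron share higher) and -9.22 to -2.34 without 1 replicate. For the share above the median signal it was -13.8 to -10.7 points without 1 replicate, -14.0 by rank in replicate 1 and -10.9 by rank in replicate 3. The same share against nearer intron peaks was -10.4 to -7.19 points without 1 replicate, -8.76 by rank in replicate 1 and -9.30 by rank in replicate 3, and against intergenic peaks -9.73 by rank in replicate 1; these values by rank and that without replicate 2 passed. Motifs higher than in tiles numbered 2 at 2000 bp, 2 with all genes and 1 with GC-restricted tiles. Motifs lower than in tiles numbered 0 at 10000 bp, with all genes, above the median signal, in windows of 50 bp to each side, with GC-restricted tiles and without any 1 replicate (0 to 0). Against promoter peaks, 1 motif was higher at 2000 bp, and 1 was lower at 10000 bp, 2 with all genes, 0 above the median signal, 1 in windows of 50 bp to each side and 2 to 3 without 1 replicate. Against flanks at 1500 bp, 1 was lower. The cause of these changes was not tested; sets without a replicate, above the median or at 10000 bp hold fewer peaks. All 3 libraries belong to 1 group, so libraries could not be paired. The pairing of a summit with its own flanks was not used. Depth is unknown, so its effect on weak peaks could not be assessed.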
